A study of Rattus norvegicus with 8 samples.

Results

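The barcodes described here were selected on their own counts of Vcan and Fcnb as candidate classical monocytes of rat liver, a name that the markers below bore out only in the members richest in these 2 genes. A barcode was a member when it held at least 500 unique molecular identifiers (UMIs, each marking 1 captured transcript), under 20% of them from mitochondrial genes, at least 3 UMIs of Vcan and Fcnb together, and no UMI of Clec4f, Siglech or Cd79a, which mark Kupffer cells, plasmacytoid dendritic cells and B cells. Of the 32170 barcodes within the limits on UMIs and mitochondrial genes, 2587 were members and the other 29583 served as the comparison. The immune cells were freed from the livers with filters, red cell lysis and a density gradient, and came from 4 male Han Wistar rats whose age is not given in the sources used here. Animals NC1 and NC2 received CSAA, a defined amino acid diet with sufficient choline, and animals PC1 and PC2 received CDAA, its choline-deficient counterpart, which is used to produce fatty, inflamed livers. Part of each animal's cells was loaded fresh on the Chromium droplet system and another part after 3 weeks of cryopreservation in dimethyl sulfoxide (DMSO), which gave 8 libraries of 18338700 to 26471843 UMIs. Fresh libraries were made before storage and DMSO libraries after it, so preservation and day of processing cannot be told apart.

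Classical monocytes are made in the bone marrow, circulate in blood and enter injured tissue, where they can become macrophages. They carry sensors of microbial products such as Cd14, the co-receptor for bacterial lipopolysaccharide, and they store or secrete lysozyme (Lyz2), the calcium-binding alarmins S100a8 and S100a9, ficolins such as Fcnb, and matrix proteins such as versican (Vcan) and fibronectin (Fn1). In a fatty liver, incoming monocytes are a source of lipid-laden macrophages, and when cells are handled or stressed their immediate early genes, such as Fos and Jun, can be induced within minutes.

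The fresh libraries of NC1, NC2, PC1 and PC2 gave 208, 221, 387 and 536 members, and the DMSO libraries gave 149, 165, 397 and 524. The members of 1 library held between 739656 and 3582386 UMIs in all. Any 2 libraries shared 10 to 29 passing barcodes, where the product of their sizes gives 16.5 to 26.5, and 6 members were shared over all 28 pairs of libraries.

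Members were unequal in how much Vcan and Fcnb they held. The median member had 6, 7, 4 and 4 UMIs of both genes together in the fresh libraries of NC1, NC2, PC1 and PC2, and 10, 8, 5 and 5 in the DMSO libraries. Just inside the threshold, 828 members had exactly 3 UMIs. Levels are given in CPM, the UMIs of a gene as a share of all UMIs of the same barcodes, scaled alike in every library. In the members with exactly 3, Fcnb averaged 531 CPM, against 417 CPM in the passing barcodes with exactly 2 UMIs, just outside it. In all, 1161 members held 3 or 4 UMIs, 484 held 5 to 9 and 942 held at least 10.

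The markers of the name classical monocyte were high in the members with at least 10 UMIs and not in those with 3 or 4. Fn1 averaged 1027 CPM in the former (926 to 1132 over the 8 libraries), 187 CPM in the latter (99.3 to 341) and 118 CPM in barcodes with 2 UMIs or fewer. Cd14 was at 152 to 343 CPM, 20.4 to 97.5 CPM and 17.8 to 76.5 CPM in the same order. The acute-phase protein gene Hp, haptoglobin, was at 222 to 438, 16.5 to 63.3 and 14.1 to 57.1 CPM. In each of these genes the members with at least 10 UMIs lay above both other groups without overlap, whereas the members with 3 or 4 overlapped the barcodes below the threshold. Since the rule selected the cells, this is a description without a test.

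**Figure D1:**
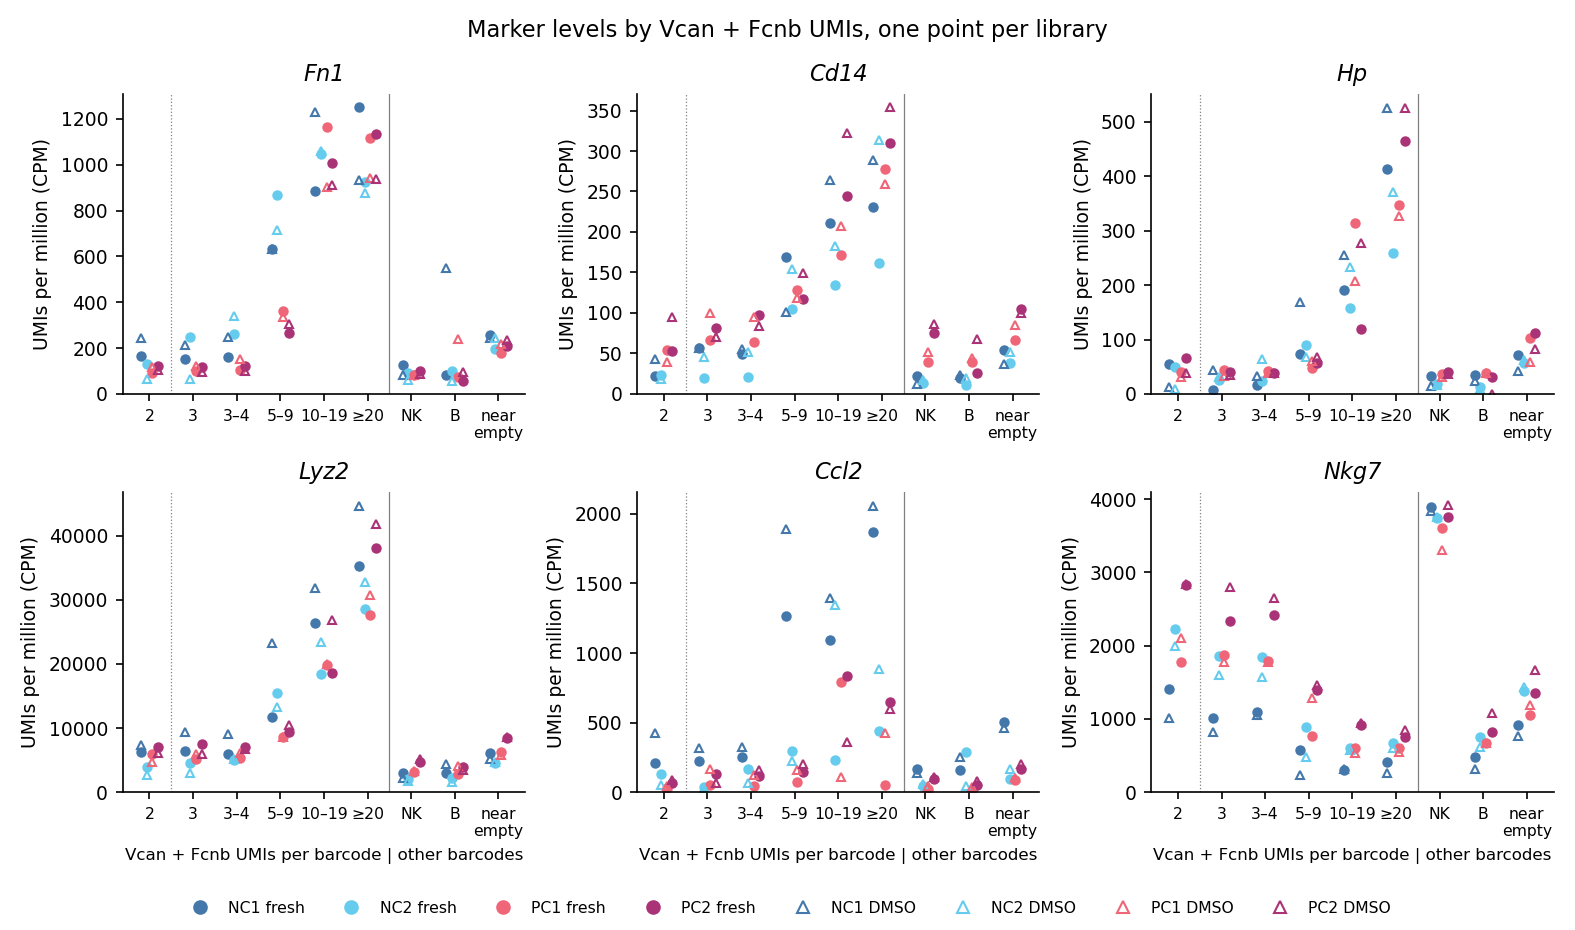
Levels of Fn1, Cd14, Hp, Lyz2, Ccl2 and Nkg7 (CPM, linear axis) by the number of Vcan and Fcnb UMIs per barcode. Barcodes rich in Nkg7 (NK) or Cd79a (B) and nearly empty barcodes are at the right. Each point is 1 library, and the dotted line separates non-members with 2 UMIs from members. Fn1, Cd14, Hp and Lyz2 rise steeply between 3 or 4 UMIs and 10 or more, where Lyz2 reaches 24801 to 38350.0 CPM, while the NK gene Nkg7 falls.

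The same contrast held across other genes of these cells. Lyz2 was at 24801 to 38350.0 CPM in the members with at least 10 UMIs and at 4941 to 9047 CPM in those with 3 or 4. The monocyte-attracting chemokine Ccl2 varied far more between animals, from 266 to 1730.2 CPM, and was highest in both libraries of NC1. Genes ranked by their ratio to the other passing barcodes in every library, beyond those named, included Trem1, an amplifier of myeloid inflammatory signals (155 CPM with at least 10 UMIs against 20.5 CPM with 2 or fewer), the lysozyme paralogue Lyc2 (301 against 25.8 CPM), Rnase2 (118 against 7.77 CPM), the calcium-binding S100a6 (4242 against 729 CPM) and Mgst2 (448 against 56.3 CPM). Tppp3, Tgfbi, the chemokine receptor Ccr1, Lmna, Glrx, Mnda, Prdx5, Fxyd2 and Mrpl33 completed the leading 20. Their ratios of the members with at least 10 UMIs to the barcodes with 2 or fewer ran from 2.52 for Fxyd2 in 1 library to 9.37 for Ccr1 in another.

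Not every textbook marker was there to read. Ccr2, the receptor that brings classical monocytes out of the marrow, had only 13 UMIs in all members with at least 10 Vcan and Fcnb UMIs, and F13a1, a coagulation factor of monocytes, had 15. The Fc receptor gene Fcgr3a, a marker of nonclassical monocytes and NK cells, was lower in the members with at least 10 UMIs, at 45.0 to 126 CPM, than in the barcodes with 2 or fewer, at 157 to 324 CPM. Cx3cr1, another nonclassical marker, was low in both, at 9.89 to 27.7 and 10.7 to 23.2 CPM.

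Transcripts of other cell types were present in every group of members. The NK list summed to a mean of 6154 CPM in the members with at least 10 UMIs, 18943 CPM in those with 3 or 4 and 17802 CPM in barcodes with 2 or fewer, and its most abundant gene was the chemokine Ccl5. The T cell list summed to 589, 1575 and 1421 CPM (most abundant gene Cd8a) and the Kupffer list to 789, 1140 and 1177 CPM (C1qb). The B cell list summed to 147 CPM in the members with at least 10 UMIs and to 494 CPM in barcodes with 2 or fewer. The plasmacytoid dendritic list was at 206 CPM in those members. The rule asked for no Cd79a and no Siglech. Barcodes with at least 15 Nkg7 UMIs, which also had to lack Cd79a but not Siglech, held 163 CPM of the B cell list. The part of the rule in these levels was not tested. The part these transcripts play in the results was not tested except where values without lymphocyte-rich members are given.

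Barcodes that should lack Fcnb also held it. Of 4893 barcodes with at least 15 Nkg7 UMIs and no Cd79a UMI, the NK barcodes, 980 had 3 or more Vcan and Fcnb UMIs. This share ran from 5.80% of the NK barcodes in NC1 DMSO to 29.6% in PC2 fresh. The NK barcodes had median depths of 4418 to 5545 UMIs, against 4378 to 5957 UMIs in members. A count of 10 or more occurred in 67 NK barcodes, at most 1.99% of those in a library. Of the conditions on excluded genes, only the absence of Cd79a was applied to the NK barcodes. The share with 3 or more UMIs was 20.4% to 29.6% in NK barcodes of the CDAA animals and 5.80% to 12.5% in those of the CSAA animals. The part of free RNA or doublets in these counts was not tested. The values below lead with the 942 members of at least 10 UMIs, which are called monocytes from here on, a limit set after the marker levels had been seen.

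The conditions on Clec4f, Siglech and Cd79a also removed barcodes rich in monocyte transcripts. Of 1943 passing barcodes with at least 10 Vcan and Fcnb UMIs, 1001 were left out, 810 of them with a Siglech UMI, and 630 carried just 1 UMI of the excluded genes. Allowing that single UMI gave 1572 barcodes. In these 1572, Fn1 averaged 974 CPM, close to the 1027 CPM of the narrower group.

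Members took up a larger share of barcodes in both CDAA animals than in both CSAA animals. By the rule they made up 4.51%, 5.35%, 9.39% and 12.8% of passing barcodes in the fresh libraries of NC1, NC2, PC1 and PC2, and 4.19%, 4.81%, 10.2% and 12.4% in the DMSO libraries. The members with at least 10 UMIs made up 1.91%, 2.28%, 3.01% and 3.77% fresh and 2.14%, 2.13%, 3.64% and 4.43% after DMSO. Both CDAA animals lay above both CSAA animals in each of these series. The diet difference in fresh cells was 6.16 percentage points by the rule and 1.30 points with at least 10 UMIs, with an exact permutation p of 0.333, the smallest that 2 animals against 2 allow. After thinning every barcode to 1000 UMIs it was 1.73 points. The size of the difference moved with the threshold, to 9.83 points with at least 2 UMIs and 2.40 points with at least 5, and it was 2.41 points with at least 10 when 1 UMI of the excluded genes was allowed. NK barcodes with 3 or more UMIs were also more frequent in the CDAA animals, and their part in the share by the rule was not tested. The DMSO libraries gave 6.79 points by the rule and 1.90 points with at least 10 UMIs.

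Preservation changed the share by -0.115 ± 0.608 percentage points (SD, n = 4 animals, exact permutation p = 0.75) under the rule. For at least 10 UMIs the change was 0.343 ± 0.381 points (n = 4, exact permutation p = 0.25). The smallest p that 4 pairs allow is 2 of 16 sign changes. Neither of these 2 changes was larger than the spread between animals, but with the threshold at 2 UMIs the change was -1.69 ± 0.418 points and the share was lower in 4 of 4 animals, at that smallest p.

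**Figure D2:**
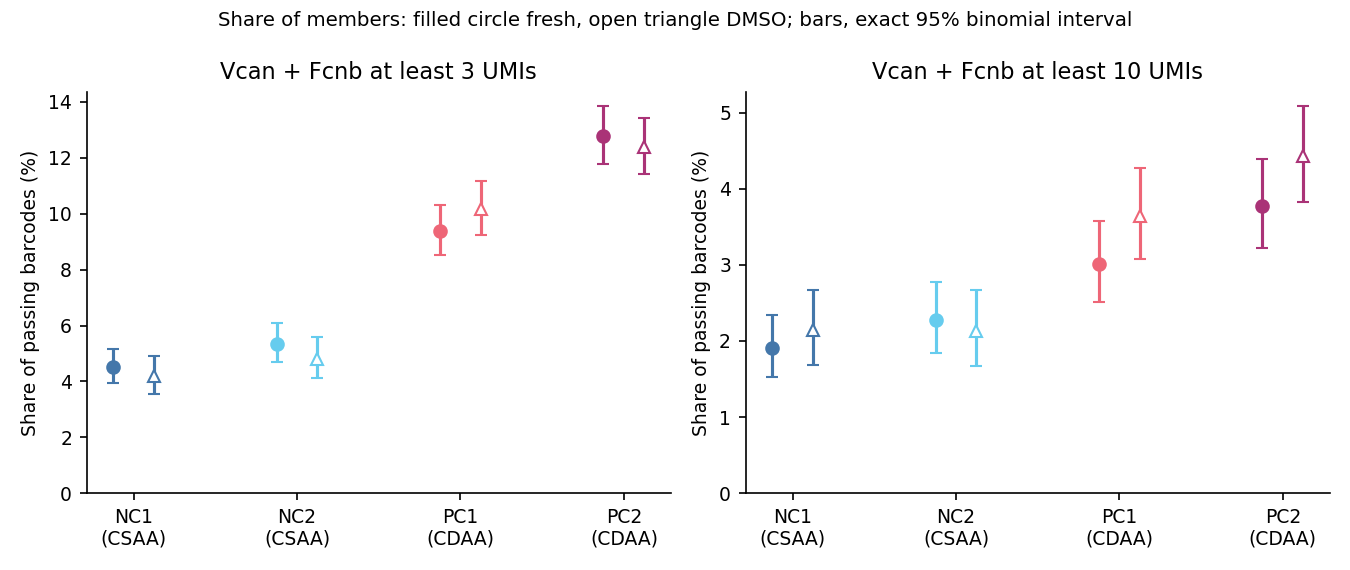
Share of passing barcodes (%) that were members, by the rule of at least 3 Vcan and Fcnb UMIs and with at least 10, in each animal; filled circles are fresh and open triangles DMSO libraries, and bars are exact 95% binomial intervals, which cover counting error only. The CDAA animals PC1 and PC2 lie above NC1 and NC2 in both panels (fresh, at least 10 UMIs: 3.01% and 3.77% against 1.91% and 2.28%), and fresh and DMSO libraries of an animal lie close together.

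Members held fewer UMIs and genes in the DMSO library of each animal. The median member held 5525.5, 5025, 5830.0 and 5957 UMIs in the fresh libraries of NC1, NC2, PC1 and PC2, and 4378, 4488, 5650.0 and 5581.5 in the DMSO libraries, so all 4 animals were lower. The mean change was -560.0 ± 418 UMIs (SD, n = 4, with the exact permutation test at its smallest p, 2 of 16). It was -364 without NC1 and -217 with the threshold at 2 Vcan and Fcnb UMIs, where all 4 animals were again lower. Genes per member changed by -185 ± 106, lower in 4 of 4 animals, and by -14.4 ± 5.59 when each barcode was read at 1000 UMIs. The other passing barcodes changed by -168 ± 154 UMIs and -82.0 ± 20.8 genes. The median mitochondrial percentage of members was 6.18, 8.97, 5.83 and 6.27 fresh and 6.05, 10.1, 5.87 and 5.28 after DMSO, a mean change of 0.00846 ± 0.862 percentage points (n = 4, exact permutation p = 1). In the other passing barcodes that percentage changed by -0.809 ± 0.486 points and was lower in 4 of 4 animals, the smallest p the exact permutation test allows.

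Immediate early genes rose in the monocytes after preservation, while Fn1, Hp and Cd14 did not pass the test. In the members with at least 10 UMIs, edgeR's quasi-likelihood test compared the libraries' summed UMIs within animals and passed 148 of 5006 genes (2.96%) at an adjusted p under 0.05, 83 higher and 65 lower after DMSO, and 35 of them (0.699%) changed at least 2-fold. In all 2587 members it passed 238 of 7415 genes (3.21%), 57 of them at least 2-fold (0.769%). Leaving out 1 animal moved the 148 to between 35 (29 higher and 6 lower, without PC1) and 141 (72 higher and 69 lower, without NC1), with 91 without PC2. The count of 35 moved to between 18 (without PC1) and 48 (21 higher and 27 lower, without NC1), with 23 without PC2, and the 238 of all members to between 88 (without PC1) and 483 (without NC1), with 98 without NC2 and 118 without PC2. Because the spread that edgeR fitted was small beside that between animals, limma on 1 log2 difference per animal was added after the data had been seen. Both tests passed 81 genes in the members with at least 10 UMIs, 57 higher and 24 lower, and in all members 101 did, 74 higher and 27 lower. Below, a gene is said to have risen or fallen where both tests passed it in the members with at least 10 UMIs, unless all members are named.

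Fosb and Fos encode partners of Jun in the transcription factor AP-1, and Fosb had the highest fold of all genes called in both sets of members. Fosb stood at 24.7, 13.6, 1.06 and 3.40 CPM in the fresh libraries of NC1, NC2, PC1 and PC2 and at 339, 850.2, 344 and 317 CPM in their DMSO libraries. Fos stood at 401, 111, 28.5 and 68.9 CPM fresh and at 885, 1042, 795 and 1059.7 CPM after DMSO. Every DMSO library lay above every fresh one for both genes, and the fresh library of NC1 was the highest of the fresh ones. Fosb rose by 5.70 ± 0.23 on the log2 scale (SE, edgeR adjusted p = 1.4e-16) and Fos by 3.12 ± 0.27 (adjusted p = 5.0e-09). The fresh Fosb levels rest on 14, 8, 1 and 4 UMIs, so the size of its rise is imprecise.

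Jun was at 86.5, 49.5, 57.0 and 32.3 CPM fresh and at 724, 1062, 485 and 656 CPM after DMSO, a rise of 3.76 ± 0.15 (log2, edgeR adjusted p = 1.4e-16). Dusp1, a phosphatase that switches off MAP kinases, was at 212, 92.1, 43.3 and 40.8 CPM fresh and at 1085, 1381, 410.0 and 854 CPM after DMSO, a rise of 3.47 ± 0.17 (adjusted p = 1.3e-14). Klf6, a zinc finger transcription factor, went from 63.6, 56.3, 43.3 and 38.3 CPM to 208, 224, 104 and 172 CPM (1.86 ± 0.14, adjusted p = 5.0e-10). Fresh and DMSO libraries did not overlap for any of the 3 genes. The chemokine Ccl3, which attracts monocytes and lymphocytes, followed them, from 627, 189, 275 and 302 CPM to 1248, 1879.8, 855 and 1410.3 CPM (2.05 ± 0.17, adjusted p = 3.6e-09).

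**Figure D3:**
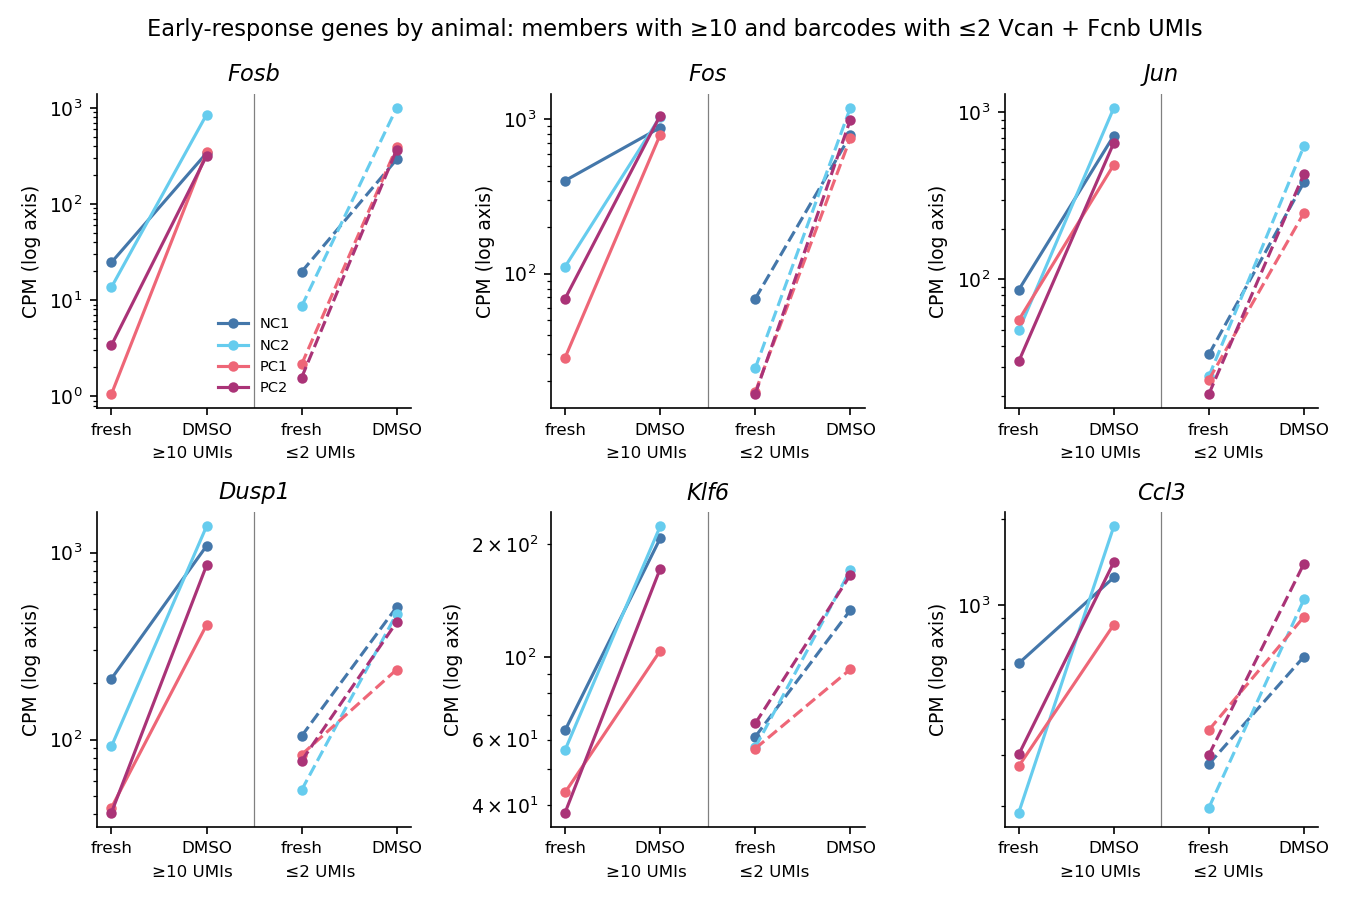
Levels of Fosb, Fos, Jun, Dusp1, Klf6 and Ccl3 (CPM, log axis) in fresh and DMSO libraries of each animal; solid lines are members with at least 10 Vcan and Fcnb UMIs and dashed lines barcodes with 2 or fewer. All lines climb, and for Fos the fresh solid point of each animal lies above its fresh dashed point (28.5 to 401 against 16.5 to 68.7 CPM over the animals).

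The rise ran through the list of early response transcription factors. Of 24 listed genes, 16 were tested in the members with at least 10 UMIs and 9 rose, 0 fell: Fos, Fosb, Jun, Junb (0.94 ± 0.14), Jund (1.48 ± 0.17), Atf3 (1.20 ± 0.22), Nr4a2 (1.95 ± 0.37), Klf6 and Btg2 (0.53 ± 0.10). The median over the 16 was 0.73 on the log2 scale against 0.00 over all genes tested. Egr1, an early gene of the same list, did not pass, at 0.07 ± 0.20 (edgeR adjusted p = 0.93). Among 22 listed genes of feedback on early signals, 14 were tested and edgeR passed 8, all higher, of which 7 rose by both tests: Dusp1, Zfp36 (1.26 ± 0.13), which destabilises cytokine mRNA, Ppp1r15a (1.39 ± 0.18), Nfkbiz (1.18 ± 0.22), Gadd45a (0.84 ± 0.17), Rgs2 (1.41 ± 0.29) and Tsc22d3 (0.61 ± 0.11). Rgs1 passed edgeR only (1.33 ± 0.20, limma adjusted p = 0.062). In all members edgeR passed 9 of 19 and 8 of 17 tested genes of the 2 lists, all higher, and 8 of each list passed both tests.

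The promoters of Dusp1 and Jund are shown because both genes rose and both hold the cyclic AMP response element TGACGTCA, a palindrome bound by the CREB and ATF factors, in the 250 bases before the start in RefSeq (GRCr8). Of the 17 genes of the 2 lists that edgeR passed, 14 had an entry and 4 held these letters, Btg2 and Ppp1r15a being the others, against 531 of 33469 promoters of the same length (1.59%). The match is a description, since no factor binding was measured here. The motif is in capitals, 124 bases before the start of Dusp1 and 221 bases before that of Jund. The windows are chr10:17184603-17184852 on the plus strand for Dusp1 and chr16:18769772-18770021 on the minus strand for Jund.
Dusp1: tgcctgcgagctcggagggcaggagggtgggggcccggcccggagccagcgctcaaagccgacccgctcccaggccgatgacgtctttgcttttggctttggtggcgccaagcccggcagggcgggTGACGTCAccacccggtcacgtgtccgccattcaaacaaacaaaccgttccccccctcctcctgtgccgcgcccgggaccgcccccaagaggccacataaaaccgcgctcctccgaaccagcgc
Jund: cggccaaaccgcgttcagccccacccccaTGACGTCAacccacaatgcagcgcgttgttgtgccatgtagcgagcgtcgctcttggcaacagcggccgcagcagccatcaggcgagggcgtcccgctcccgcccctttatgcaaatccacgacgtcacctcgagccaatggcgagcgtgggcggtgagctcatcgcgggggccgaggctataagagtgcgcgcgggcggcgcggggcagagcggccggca

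Fewer genes fell than rose, 24 against 57 by both tests. The class I histocompatibility gene RT1-CE5 went from 390.2, 515, 433 and 357 CPM in the fresh libraries to 319, 243, 183 and 201 CPM after DMSO, with every DMSO library below every fresh one (-0.82 ± 0.11, log2, edgeR adjusted p = 4.0e-05). Its counts may be shared with near-identical RT1 copies. Cd300a, an inhibitory receptor of myeloid cells, went from 37.1, 44.4, 50.7 and 46.8 CPM to 29.7, 12.3, 19.5 and 20.5 CPM (-1.12 ± 0.23, adjusted p = 0.0037), again without overlap. Spn, the sialoglycoprotein CD43, went from 159, 172, 245 and 264 CPM to 104, 98.3, 151 and 160.3 CPM (-0.66 ± 0.11, adjusted p = 0.00036), where the NC1 fresh library lay just below the PC2 DMSO library. Tomm6, a subunit of the mitochondrial import complex, fell as well (-1.45 ± 0.23, adjusted p = 0.00017). Spn was 1 of 4 genes of the nonclassical monocyte list that edgeR passed as lower, of 11 tested. The others, Clec4a3, Pou2f2 and Eno3, failed limma.

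Among the identity genes, Fn1 (-0.10 ± 0.07, edgeR adjusted p = 0.62), Hp (0.22 ± 0.11, adjusted p = 0.36) and Cd14 (0.32 ± 0.11, adjusted p = 0.12) did not pass in the members with at least 10 UMIs. Lyz2 rose, by 0.24 ± 0.04 (adjusted p = 0.00036), from 32198, 24801, 25352 and 31418 CPM to 38350.0, 28662, 26149 and 36532 CPM. It was higher after DMSO in all 4 animals although the groups overlapped. Of the 19 tested genes of the classical monocyte list, which holds Vcan and Fcnb, edgeR passed Lyz2, S100a6 and Plac8 as higher and S100a9 as lower, and only Lyz2 of these 4 passed limma. In all members the 3 higher genes were Cd14, Lyz2 and S100a6, with S100a9 lower. Vcan and Fcnb were used by the rule, so nothing is drawn from their values in the fit.

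Other lists held few genes that passed. In the members with at least 10 UMIs edgeR passed 3 genes as higher (Ccl3, Cxcl2 and Ccl4) and Ccl5 as lower of 17 cytokines and chemokines. In the heat shock list the endoplasmic reticulum chaperone Hspa5 rose (0.46 ± 0.10). The lipid-associated list had 1 lower of 17 (Spp1), the interferon list 1 lower of 17, Irf7 (-0.66 ± 0.18, limma adjusted p = 0.084), the myeloid transcription factor list 1 lower of 18 (Pou2f2), the neutrophil list 1 lower of 5 (S100a9) and the NK list 3 lower of 12 (Gzma, Prf1 and Ccl5). Of these only Gzma passed limma. For Spp1, 1 barcode held 180 of the 330 UMIs in PC2 fresh, against 141 UMIs in all in PC2 DMSO. No gene passed among the 7 class II genes, 14 cholesterol genes, 13 trafficking genes, 13 pattern recognition genes, 12 mitochondrial genes, 8 matrix and coagulation genes, 8 Kupffer genes, 6 T cell genes, 5 plasmacytoid dendritic genes and 2 B cell genes tested. The antimicrobial list had 2 higher (S100a6 and Lyz2) and 1 lower (S100a9) of 19, the Fc and inhibitory receptor list 2 lower of 14 (Cd300a and Clec4a3), and the conventional dendritic list 1 higher of 2, Cd24. The matrix and coagulation list holds Vcan and the antimicrobial list holds Fcnb, both used by the rule. Nothing is drawn from these 2 genes in the tallies, here or for diet.

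Some cell cycle genes passed in the fit over all members. There edgeR passed 6 of 17 as higher, 2 by both tests, with Ube2c, a ubiquitin ligase of mitosis, at 30.6, 40.3, 15.3 and 32.1 CPM fresh and at 39.2, 124, 69.5 and 99.0 CPM after DMSO (1.65 ± 0.16, adjusted p = 2.6e-05). In the members with at least 10 UMIs Ube2c was at 0.66 ± 0.26 (adjusted p = 0.22), and 1 of 8 tested cell cycle genes passed edgeR. Among members with 3 or 4 UMIs 8 of 17 passed, in a fit that passed 104 of 5332 genes (1.95%).

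Whether the monocytes answered storage differently from other liver immune cells was tested directly, as the difference between the change in members with at least 10 UMIs and that in barcodes with 2 or fewer. EdgeR passed 93 of 10350 genes (0.899%) and 48 of these passed limma on the animals' differences, 34 with a higher and 14 with a lower change in monocytes. Differences between groups of barcodes, here and for diet, are edgeR's estimates, also where limma's adjusted p stands beside them. For all members against all other passing barcodes 61 of 10848 genes passed (0.562%), 17 of them by both tests.

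Fos rose by less in the monocytes. It changed by 1.14, 3.23, 4.80 and 3.94 (log2 of DMSO over fresh CPM) in the monocytes of NC1, NC2, PC1 and PC2 and by 3.52, 5.61, 5.47 and 5.91 in the barcodes with 2 or fewer. The monocyte change was the smaller in 4 of 4 animals, by 2.02 on the log2 scale by edgeR and 1.86 by limma (adjusted p = 2.2e-05). Its level after DMSO overlapped between the groups, at 795 to 1059.7 and 756 to 1189 CPM, while its fresh level was higher in the monocytes of each animal. Dusp1 went the other way, with changes of 2.36, 3.91, 3.24 and 4.39 against 2.29, 3.13, 1.51 and 2.46, a difference of 1.04 (limma adjusted p = 0.0074). Klf6 also rose more, by 0.64 (limma adjusted p = 0.036). Jun passed neither test of the difference, and for Fosb the tests parted, at -0.39 ± 0.30 by edgeR (adjusted p = 0.95) and -1.02 ± 0.21 by limma (adjusted p = 0.024). Fosb changed by 3.78, 5.96, 8.35 and 6.54 in the monocytes and by 3.89, 6.86, 7.5 and 7.88 elsewhere, the smaller in monocytes in 3 of 4 animals, with PC1 the other way. The fresh monocytes of PC1 held only 1 Fosb UMI. Against barcodes with at least 5 Fcgr3a UMIs, 33 to 156 per library, in place of those with 2 Vcan and Fcnb UMIs or fewer, edgeR passed 14 of 4565 genes, 1 higher and 13 lower, where it had passed 63 as higher and 30 as lower. Fos (-2.12 ± 0.23, adjusted p = 1.1e-08) and Klf6 (1.52 ± 0.26, adjusted p = 0.00048) passed there and Dusp1 did not (0.64 ± 0.18, adjusted p = 0.19).

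Hp, S100a8 and Lyz2 changed upward in the monocytes relative to the other barcodes, and Cd14 (0.14, edgeR adjusted p = 0.93) and Fn1 (-0.21, adjusted p = 0.078) did not pass. Of the 22 tested genes of the classical monocyte list other than Vcan and Fcnb, 8 passed edgeR with a higher and 0 with a lower change, and 7 passed both tests. Hp changed by 0.21, 0.48, -0.29 and 0.34 in the monocytes and by -1.35, -1.21, -0.14 and -0.64 in the barcodes with 2 or fewer, a difference of 0.91 (limma adjusted p = 0.012) that 3 of 4 animals showed. For S100a8 the difference was 0.60 (adjusted p = 0.0011) and for Lyz2 0.33 (adjusted p = 4.3e-06), with 4 of 4 animals higher in monocytes for S100a8 and Lyz2. Against the Fcgr3a barcodes none of these 3 genes passed edgeR, with Hp at 1.11 ± 0.38 (adjusted p = 0.56), S100a8 at 1.13 ± 0.28 (adjusted p = 0.059) and Lyz2 at 0.17 ± 0.04 (adjusted p = 0.053). In barcodes with 2 UMIs or fewer these transcripts stood below the level of nearly empty barcodes (Hp 34.1 against 73.6 CPM, Lyz2 5042 against 6212 CPM on average), and the part of free RNA in the difference was not tested.

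Class II genes, which present antigen to T cells, went the opposite way. Cd74, the invariant chain, changed by -0.65, -0.34, -0.05 and -0.12 in the monocytes and by 0.10, 0.19, 0.16 and 0.23 elsewhere (difference -0.44, limma adjusted p = 0.00069). RT1-Da changed by -0.52, -0.40, -0.05 and 0.11 against 0.41, 0.32, 0.32 and 0.28 (difference -0.52, adjusted p = 0.0021). The 10 richest monocytes of a library held from 30.9% (PC1 DMSO) to 57.9% (NC2 DMSO) of its monocyte RT1-Da UMIs. Their part in the difference was not tested. Of 11 tested class II genes 5 had a lower change in monocytes and all 5 passed both tests, although none passed for preservation within the monocytes. Cd74 and RT1-Da also passed against the Fcgr3a barcodes (-0.31 ± 0.07 and -0.60 ± 0.09). The differences from the barcodes with 2 or fewer were larger in the CSAA animals than in PC1 and PC2, which was not tested.

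**Figure D4:**
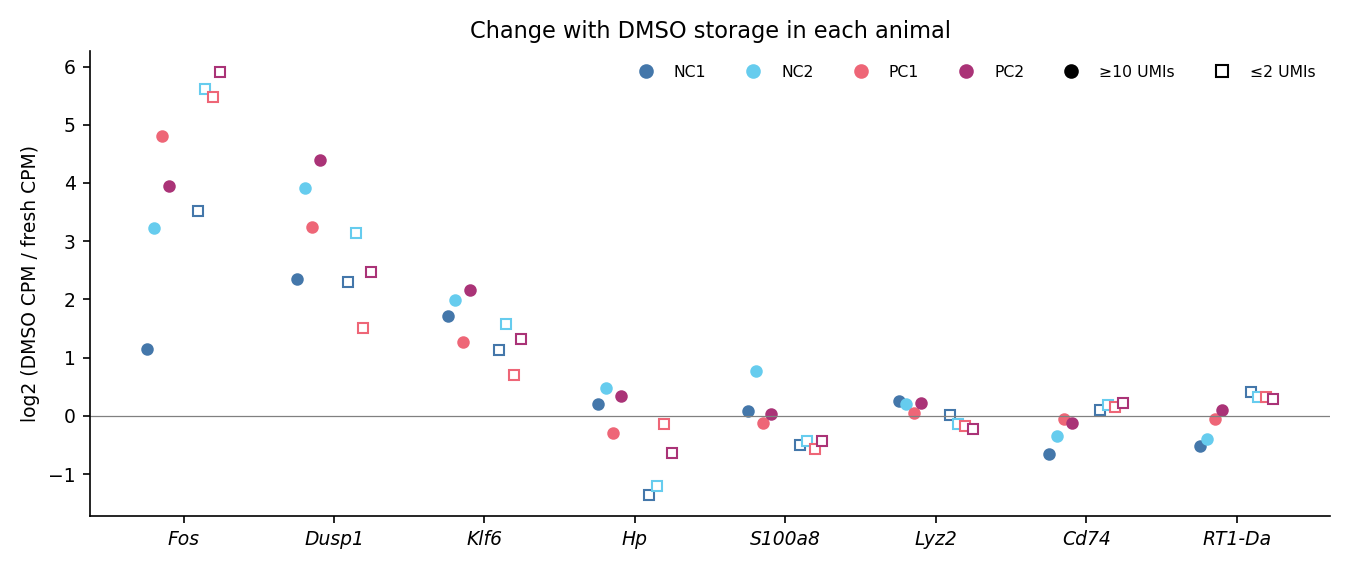
Change with preservation (log2 of DMSO over fresh CPM) of Fos, Dusp1, Klf6, Hp, S100a8, Lyz2, Cd74 and RT1-Da in each animal; circles are members with at least 10 Vcan and Fcnb UMIs and squares barcodes with 2 or fewer. In all 4 animals the circles lie below the squares for Fos, Cd74 and RT1-Da and above them for Dusp1, Klf6, S100a8 and Lyz2.

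Several genes of the lipid-associated macrophage list were higher in the monocytes of the CDAA animals. In the 4 fresh libraries edgeR passed 57 of 5235 genes (1.09%) in the members with at least 10 UMIs, 38 higher and 19 lower in CDAA animals, 47 of them at least 2-fold (0.898%). Of the 57, 38 passed limma, 26 higher and 12 lower. In all members 29 of 7657 genes passed (0.379%), 25 of them at least 2-fold (0.326%), and 20 passed both tests. For each of the 25 and each of the 47 the CDAA animals did not overlap the CSAA animals, which with 2 animals a group rests on few values. Nothing is drawn from this, since these genes were called on the same values and the share over all genes tested is not given. Leaving out 1 animal raised the count of 47 in each case, in fits that assumed that the lone animal of a diet varied like the others. The surplus of higher genes was kept with libraries summed per animal (23 higher and 11 lower), by DESeq2 (23 and 14) and by limma alone (26 and 13). It was not kept in the DMSO libraries, with 21 higher and 24 lower passing, where 39 changed at least 2-fold. Without NC2, PC1 or PC2 lower genes outnumbered higher ones, and without NC1 the directions were nearly even.

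Fabp4, a fatty acid carrier, was at 1.76 and 10.2 CPM in the fresh libraries of NC1 and NC2 and at 242 and 538 CPM in those of PC1 and PC2 (5.92 ± 0.54 on the log2 scale, edgeR adjusted p = 0.00028). These were 1, 6, 229 and 633 UMIs, so Fabp4 passed the count filter through the CDAA libraries and its fold is imprecise. Cd63, a tetraspanin of lysosomes and late endosomes, was at 35.3 and 39.2 CPM against 311 and 335 CPM (3.05 ± 0.20, adjusted p = 3.2e-05). The secreted phosphoprotein gene Spp1, osteopontin, was at 8.83 and 0 CPM against 97.2 and 281 CPM (edgeR adjusted p = 0.0082). With 5, 0, 92 and 330 UMIs, Spp1 also passed the filter through the CDAA libraries, and no fold is given. All 3 were higher in both CDAA animals. Single barcodes gave many of these UMIs in PC2 fresh, 213 of 633 for Fabp4 and 180 of 330 for Spp1. Fabp4 was found in 84.8%, Cd63 in 72.2% and Spp1 in 53.2% of the members with at least 10 UMIs there.

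Apoe, a carrier of cholesterol, was at 31.8 and 34.1 CPM against 190.2 and 227 CPM (2.60 ± 0.22). The lipid receptor gene Trem2 was at 5.30 and 1.71 CPM against 24.3 and 51.9 CPM (3.38 ± 0.65). These were 3, 1, 23 and 61 UMIs, so the CDAA libraries carried Trem2 through the count filter and its fold is imprecise. Lipoprotein lipase, Lpl, was at 0 and 3.41 CPM against 49.7 and 70.6 CPM, and the elastase gene Mmp12 at 1.76 and 0 CPM against 23.2 and 86.7 CPM, with 48 of its 102 UMIs in PC2 from 1 barcode. The aspartic protease Ctsd, of lysosomes, was at 132 and 148 CPM against 294 and 457 CPM (1.36 ± 0.22). Of 18 tested genes of the lipid-associated macrophage list 11 passed edgeR and 9 passed both tests, all higher, with a median of 1.71 on the log2 scale against -0.01 over all genes tested. Spp1, Fabp4, Lpl, Mmp12 and Trem2 had at most 6 UMIs in either CSAA library. Such genes passed the count filter through the CDAA libraries, so the tally and the median are given as a description. Gpnmb (1.58 ± 0.30, limma adjusted p = 0.057) and Lgals3 (0.72 ± 0.15, limma adjusted p = 0.064) passed edgeR only. In all members 10 of 19 genes of the list passed edgeR and 8 both tests, and in the barcodes with 2 UMIs or fewer, fitted alone, 12 of 19, where 139 of 11152 genes passed (1.25%).

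These transcripts were abundant outside the monocytes too. In the fresh library of PC2, Fabp4 was at 998 CPM and Spp1 at 413 CPM in the NK barcodes, and at 820.3 and 365 CPM in the nearly empty barcodes of 10 to 100 UMIs, each above the monocyte level of 538 and 281 CPM. Cd63 was likewise at 424 and 484 CPM there against 335 CPM. The part of free RNA in the diet difference of these genes was not tested.

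The uncharacterised gene RGD1562667 behaved otherwise. It was at 5.30 and 5.12 CPM in the monocytes of NC1 and NC2 and at 355 and 705 CPM in those of PC1 and PC2 (6.58 ± 0.45, edgeR adjusted p = 3.2e-05). In the barcodes with 2 UMIs or fewer it was at 12.1, 20.8, 169 and 386 CPM in the same order. The monocytes were the lower group in both CSAA animals and the higher one in both CDAA animals. Their CSAA levels rest on few UMIs, out of 566439 in NC1 and 586196 in NC2, so that order is uncertain in the CSAA animals. In the monocytes' own fit the gene passed the count filter through the CDAA libraries. The diet difference was larger in the monocytes by 2.59 on the log2 scale (2.03 by limma, adjusted p = 0.00058), a size that is imprecise for the same reason. Against the Fcgr3a barcodes that difference was 0.14 ± 0.72 (edgeR adjusted p = 1). A second uncharacterised gene, RGD1561778, was at 10.6 and 11.9 CPM against 172 and 308 CPM (4.34 ± 0.37), again on few CSAA UMIs.

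The alarmins S100a8 and S100a9 were higher in the CDAA monocytes with at least 10 UMIs. S100a8 was at 328 and 220.1 CPM in the CSAA and at 616 and 905 CPM in the CDAA animals (1.42 ± 0.21, edgeR adjusted p = 0.012), and S100a9 at 101 and 56.3 CPM against 188 and 239.7 CPM (1.40 ± 0.24). In all members S100a8 did not pass (adjusted p = 0.15). The complement genes C1qb (63.6 and 116 against 227 and 303 CPM) and C1qc, which Kupffer cells express strongly, were higher in the same 2 animals, as 2 of 8 tested Kupffer genes, and 106 of the 357 C1qb UMIs in PC2 fresh came from 1 barcode. The whole Kupffer list summed to 445, 553, 912 and 1275 CPM in the monocytes, to 418, 488, 1313 and 2086 CPM in NK barcodes and to 844, 1195, 2016 and 1873 CPM in nearly empty barcodes of NC1, NC2, PC1 and PC2, so it was higher in the CDAA animals there too. Its part in these calls was not tested.

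Lower in CDAA animals was the neutrophil-attracting chemokine Cxcl1, at 28.2 and 34.1 CPM against 1.06 and 0.850 CPM (edgeR adjusted p = 0.0038). These were 16, 20, 1 and 1 UMIs, so Cxcl1 passed the count filter through the CSAA libraries and its levels are given as a description. In NC2, 12 of the 20 came from 1 barcode. Dusp1 was at 212 and 92.1 CPM against 43.3 and 40.8 CPM (-1.90 ± 0.32, adjusted p = 0.021), and Ypel3 at 401 and 288 CPM against 152 and 96.9 CPM (-1.53 ± 0.23, adjusted p = 0.012). RT1-Da, a class II chain, was at 2694 and 3023 CPM against 1875 and 1447 CPM (-0.84 ± 0.16, adjusted p = 0.032). The 10 richest monocytes of a fresh library held from 38.1% (PC2) to 48.0% (NC2) of these UMIs. The interferon-induced Mx1 (-1.86 ± 0.34) and Fos (-2.40 ± 0.49) passed edgeR and failed limma, with adjusted p of 0.069 and 0.089. Fn1, Hp, Cd14 and Lyz2, at 0.03, 0.24, 0.46 and -0.06, did not pass for diet.

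**Figure D5:**
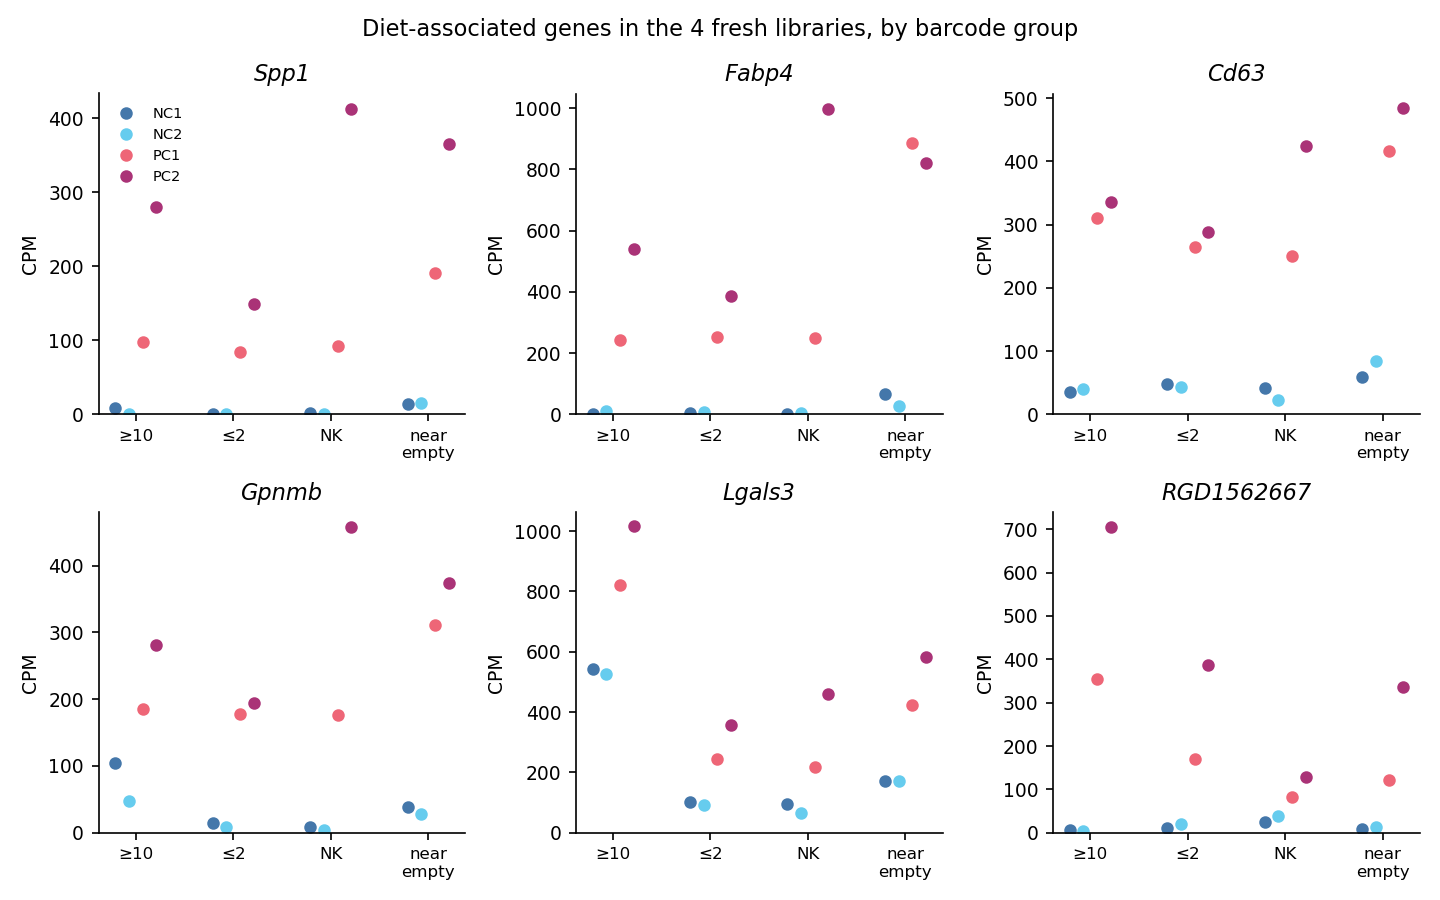
Levels of Spp1, Fabp4, Cd63, Gpnmb, Lgals3 and RGD1562667 (CPM) in the 4 fresh libraries, in members with at least 10 Vcan and Fcnb UMIs, barcodes with 2 or fewer, NK barcodes and nearly empty barcodes. Fabp4 and Spp1 in PC2 are as high in NK and nearly empty barcodes as in members, whereas RGD1562667 is highest in the members of PC1 and PC2 (355 and 705 CPM) and Lgals3 is higher in members than in barcodes with 2 or fewer in each library (544, 527, 823 and 1016 against 102, 91.3, 246 and 357 CPM).

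The remaining lists held few diet calls in the members with at least 10 UMIs. Of 17 tested cytokines and chemokines, Cxcl16 and Ccl7 passed as higher beside Cxcl1 as lower. Ccl7 was at 56.5 and 23.9 against 118 and 184 CPM. Single barcodes gave 85 of its 112 UMIs in PC1, 69 of 216 in PC2 and 24 of 32 in NC1. Of 15 tested feedback genes Nfkbia passed as higher and Dusp1 as lower, of 15 early response genes only Fos, as lower, and of 13 trafficking genes the integrin Itgb2, as higher. Of 3 conventional dendritic genes Clec10a passed as lower. Cd3g, of T cells, passed as lower in all members, 1 of 10 T cell genes tested. No gene passed for diet among the 12 NK, 12 mitochondrial, 14 cholesterol, 9 heat shock, 8 cell cycle, 8 matrix and coagulation, 13 pattern recognition, 14 Fc and inhibitory receptor and 18 myeloid transcription factor genes tested in the members with at least 10 UMIs.

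The diet difference itself was compared with that of other barcodes. Comparing at least 10 UMIs with 2 or fewer, edgeR passed 185 of 10610 genes (1.74%), 95 of them by both tests, 18 with a larger and 77 with a smaller difference in monocytes. Against the Fcgr3a barcodes it passed 7 of 5293 genes, 2 with a larger and 5 with a smaller difference, RT1-Da, Cd74 and Lgals3 among the latter. For all members against all others it passed 263 of 11114 (2.37%), 106 by both. The eosinophil-attracting chemokine Ccl24 was at 61.8, 58.0, 56.0 and 158 CPM in the monocytes of NC1, NC2, PC1 and PC2 and at 92.9, 64.0, 5.30 and 18.1 CPM in the barcodes with 2 or fewer, a difference of 3.56 (limma adjusted p = 2.1e-07). In the CDAA animals the monocytes were the higher group, and in the CSAA animals the other barcodes were. Few monocytes gave these Ccl24 UMIs, with 9 of 124 members holding all 53 in PC1 fresh, 29 of them in 1 barcode, and 28 of 158 holding the 186 in PC2 fresh, where 9 barcodes had at least 5 each and 1 had 41. Gpnmb, a glycoprotein of lipid-laden macrophages, was at 104, 47.8, 186 and 281 CPM against 14.9, 8.11, 178 and 195 CPM. Single barcodes gave 108 of its 331 monocyte UMIs in PC2 fresh and 18 of 59 in NC1 fresh. Its difference was -2.42 (limma adjusted p = 2.3e-06). Lgals3 (-0.87, adjusted p = 0.00048), Cd14 (-0.88, adjusted p = 0.0020) and Lyz2 (-0.65, adjusted p = 0.00023) had the same sign, and Ccl7 (1.91, adjusted p = 0.00053) and Cxcl2 (2.19, adjusted p = 0.011) the opposite one. Cxcl2 had 3 UMIs in the 124 members of PC1 fresh and 23 in PC2 fresh, where 3 of 158 members held them and 1 barcode held 17. Ccl24 (3.41 ± 0.77, edgeR adjusted p = 0.077), Gpnmb (-1.49 ± 0.39, adjusted p = 0.20), Cd14 (-1.23 ± 0.43, adjusted p = 0.47), Lyz2 (-0.08 ± 0.08, adjusted p = 0.89), Ccl7 (0.56 ± 1.66, adjusted p = 0.98) and Cxcl2 (1.45 ± 1.34, adjusted p = 0.89) did not pass against the Fcgr3a barcodes.

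In the same test over all members, 8 of 12 NK genes passed edgeR as having a larger diet difference in members, 7 by both tests, among them Nkg7, Gzma, Gzmb and Prf1. Among members with at least 10 UMIs no NK gene passed as higher and 1 passed as lower. Members with 3 or 4 UMIs were 86 of 208 in NC1 fresh and 196 of 387 in PC1 fresh, and the part of this in the result over all members was not tested.

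Whether the response to storage differed between the diets was tested with 2 animals a diet. EdgeR passed 4 of 8014 genes in all members (0.0499%) and 16 of 5656 in the members with at least 10 UMIs (0.283%), and limma on the animals' differences left 1 in each, Cxcl9 and Id1. Id1, an inhibitor of differentiation factors, was at 61.8, 66.5, 164 and 232 CPM fresh and at 239.8, 241, 171 and 347 CPM after DMSO, so it was higher after storage in all 4 animals and by more in NC1 and NC2 (difference -1.58 on the log2 scale, limma adjusted p = 0.0078). Fos rose by more in the CDAA animals by edgeR (2.19), and failed limma (adjusted p = 0.12).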

How the data were processed

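The authors deposited raw count matrices of UMIs, 32754 genes by 737280 barcodes per library, made from Chromium 3′ v2 libraries with Cell Ranger 2.1.1 on Rnor6.0 with Ensembl 86, per the labels and the study's methods. The submitters' processing notes also name bcl2fastq 2.17.1.14, with no role given there. The study's methods name it, in their Drop-seq part, for converting BCL files to FASTQs. Barcodes were read by the rule of the opening. No doublet caller was run. UMIs were summed per library over members (739656 to 3582386) and tested with edgeR 4.0.16 (TMM, filterByExpr, quasi-likelihood F test, Benjamini-Hochberg adjustment over all genes tested) in R 4.3.3. Preservation was blocked by animal, and diet compared 2 against 2 fresh libraries. Differences between members and other barcodes were fitted on the summed profiles of both. Limma 3.58.1 on 1 log2 CPM value per animal and the group with at least 10 Vcan and Fcnb UMIs were added after the data had been seen. Shares and medians were compared by exact permutation (16 sign changes, 6 groupings). DESeq2 1.42.0 was an alternative, and promoter windows came from RefSeq.

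The labels tie fresh and DMSO libraries to 1 animal, and the deviations of paired libraries correlated at 0.304 to 0.548. The numbers of NC1 and PC1 mark no shared animal (correlation 0.0444). Named genes were the rule's genes and markers, up to 10 called genes in each direction that moved alike in all animals, up to 4 of each of 27 lists, the 20 genes highest in members, and up to 5 in each direction of each test of a difference. Members and lists were chosen with earlier results of these data known. Others named were chosen after their values were seen. Some listed genes are not reported here. Counts shared by near-identical RT1, lysozyme or Mcpt copies are uncertain. The fits were tested on simulated data. Intervals cover counting error only.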

Additional observations from a re-analysis of the deposited data

Results flagged for a closer look

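Genes whose response to storage differed between the diets numbered 4 in all members by edgeR and 16 in the members with at least 10 UMIs, as log2 differences of CDAA minus CSAA animals. In all members these were Mcpt8l3 (1.38), Mcpt1l4 (1.13), Cxcl9 (-3.51) and Id1 (-1.43), and limma passed Cxcl9 alone (adjusted p = 0.0186). The named ones with at least 10 UMIs were Fos (2.19), Esf1 (1.79), H2afj (1.31), Cd7 (1.01), Ccl7 (-1.78), Id1 (-1.58) and Rps10 (-1.24), of which limma passed Id1 alone (adjusted p = 0.00778). In the stricter group 3 more genes named by the rule are left out, as their counts were below the filter in the members' own fit.

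The response to storage differed between members and other barcodes for 61 genes in all members and for 93 with at least 10 UMIs by edgeR. In all members the named ones were Kpna2 (1.07), Cdc20 (0.91) and Ube2c (0.88), which act in mitosis or nuclear import, with Ccl1 (-1.54), Ccl7 (-1.02) and Fos (-0.99), and only Fos passed limma (adjusted p = 0.0483). Among those with at least 10 UMIs, Dusp1 (1.04), Hp (0.91), S100a8 (0.60), Lyz2 (0.33), Fos (-2.02), RT1-Da (-0.52) and Cd74 (-0.44) passed both tests. Rhob (0.84), Jund (0.75), Spp1 (-1.52) and Ccl7 (-1.40) passed edgeR only. Single barcodes held 180 of the 330 Spp1 UMIs in PC2 fresh and 85 of the 112 Ccl7 UMIs in PC1 fresh. Left out as below that filter were 4 of 10 genes named in all members and 3 in the stricter group.

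The diet difference in fresh cells differed between members and other barcodes for 263 genes in all members and for 185 with at least 10 UMIs by edgeR. In all members the named ones were Ikzf5 (2.46), Ifitm3 (-2.22), Gpnmb (-1.97) and Ly6g6d (-1.78), and limma passed Gpnmb alone (adjusted p = 0.000298). In the stricter group, Ccl24 (3.56), RGD1562667 (2.59), Cxcl2 (2.19), Ccl7 (1.91), S100a8 (0.57), Gpnmb (-2.42), Egr2 (-2.27), Dusp1 (-1.88), Cd14 (-0.88), Lgals3 (-0.87), Lyz2 (-0.65) and RT1-Da (-0.64) passed both tests, and Pf4 (-2.09) edgeR only (limma adjusted p = 0.158). Against the Fcgr3a barcodes Dusp1 (-1.34 ± 0.32, edgeR adjusted p = 0.11) and S100a8 (0.31 ± 0.36, edgeR adjusted p = 0.93) did not pass. Left out as below the filter were 6 of 10 genes named in all members and 4 in the stricter group.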

How the results depend on the processing

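The precision is limited by 2 animals per diet, by 4 pairs for storage and by 73 to 187 members with at least 10 UMIs per library. Counts of genes past the threshold depended on the processing. The genes named for storage kept their direction under every alternative run, as did those named for diet except H2afj with at least 10 UMIs, at 0.053 in the DMSO libraries. Of 950 values for 63 storage genes in all members 193 no longer passed, as did 151 of 406 with at least 10 UMIs, and for diet 28 of 348 and 68 of 384.

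For storage, 57 of 7415 genes tested were called in all members. The DESeq2 test called 32 of 5546, no filter on low counts 107 of 14888 and 10 counts in every library 27 of 4649. The members with at least 10 UMIs gave 35 of 5006, limma 32, and no 2-fold minimum 238. Leaving out 1 animal gave 37 (without PC1) to 115 (without NC1). Without the replicate block, that is without pairing by animal, 6 were called. In the stricter group, 35 became 148 with no 2-fold minimum, 13 by DESeq2, 22 by limma, 5 without the replicate block, and 18 (without PC1) to 48 with 1 animal left out, PC2 giving 23.

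For diet, 25 of 7657 genes tested were called in all members. DESeq2 called 59 of 6617, no filter 251 of 14073 and 10 counts in every library 16 of 6038. At least 2 UMIs gave 48, no lymphocyte-rich members 45, at least 10 UMIs 47, and libraries summed per animal 72. Leaving out 1 animal gave 61 (without NC1) to 245 (without PC1), with 92 without NC2 and 146 without PC2. A replicate block on the shared numbers, which pair no animals, gave 121. The stricter group's 47 became 30 summed per animal, 133 with the replicate block, and 69 (without PC2) to 147 (without NC2), with 128 without NC1 and 145 without PC1. In these fits the lone animal was assumed to vary like the others.

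For diet by storage, 4 genes became 16 with at least 10 UMIs, 1 by DESeq2 and 2 by limma, and the 16 became 1 by limma. For storage against other barcodes, 61 became 93 with at least 10 UMIs, 1 by DESeq2, 17 by limma, and 32 (without NC2) to 76 with 1 animal left out. The 93 of 10350 genes in the stricter group became 26 of 719 by DESeq2 and 14 of 4565 against barcodes with at least 5 Fcgr3a UMIs. They became 51 by limma and 54 (without PC2) to 86 with 1 animal left out, PC1 giving 55. For diet against other barcodes, 263 of 11114 genes became 78 of 4650 by DESeq2 and 106 of 7657 by limma. With at least 10 UMIs, 185 of 10610 became 58 of 5056 by DESeq2. They became 7 of 5293 against the Fcgr3a barcodes and 100 of 5235 by limma. The cause was not tested.

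The change of the share of members with storage, -0.115 points, was -1.69 ± 0.418 with at least 2 UMIs (lower in 4 of 4 animals) and -0.481 under 10% mitochondrial UMIs, and turned to 0.558 with at least 5 UMIs, 0.0330 in barcodes of at least 1000 UMIs, 0.516 after thinning, 0.124 without lymphocyte-rich members, 0.343 with at least 10 UMIs and 0.440 when 1 UMI of the excluded genes was allowed there, and ran from -0.415 (without PC1) to 0.0283 with 1 animal left out. The mitochondrial change turned to -0.394 with at least 2 UMIs, -0.0725 with 5, -0.288 with 10 and -0.241 with the 1 UMI allowed, and ran from -0.359 to 0.340 with 1 animal left out, PC1 giving -0.00262. The planned comparison with Fcgr3a barcodes found 44, and that of members with under 2 lymphocyte UMIs found 0, so neither was run. The other alternatives added after the data had been seen were the limits of 10 UMIs and of 1 excluded UMI, the group without lymphocyte-rich members, the Fcgr3a comparison, limma, the omission of the 2-fold minimum with at least 10 UMIs, the separate fits of members with 3 or 4 UMIs and of barcodes with 2 or fewer, and the diet share in DMSO libraries.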
